A study of Mus musculus with 6 samples.

Results

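The genes described here encode 10 RNA-binding proteins of neurons in the Rbfox, Nova, Elavl and Celf families. They were taken by symbol from the deposited count files, as 10 of 32531 named genes, and all 10 passed the filter on low counts with 16898 genes in all. RNA was sequenced from the thalamus of adult, untreated mice of 1 transgenic line, Cbln1-EGFP/Rpl10a (NIDA030). Cells that use the Cbln1 promoter of the transgene make a ribosomal protein fused to green fluorescent protein, and translating ribosome affinity purification (TRAP) recovers their ribosomes by that tag. The immunopurified libraries (IP, n = 3) hold the RNA recovered in that way and were set against 3 Input libraries of the same line and tissue. All mice carried the transgene, and the labels do not say which libraries came from separate or pooled animals, so the p-values cover no more than the spread of these libraries, which may be technical. The labels list ribosome-bound RNA for both kinds of library and do not set Input apart in that. Their tissue label is the thalamus, while names given to the counts mention the parafascicular nucleus within it.

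Each library held between 45256700 and 57385828 assigned counts in IP and between 23929070 and 47741219 in Input. Cbln1, the gene whose cells carry the tag, had 1361, 1428 and 1497 CPM (counts scaled by library size) in IP replicates 1 to 3, against 68.9, 83.2 and 87.2 CPM in Input replicates 1 to 3. All CPM were scaled with TMM (trimmed mean of M-values). As a look at the labelled tissue, 2 genes were picked with their values known. Tcf7l2, a transcription factor of thalamic neurons, averaged 2015 ± 200.04 CPM in IP, against 1124 ± 106 CPM in Input (SD over 3 libraries). Slc17a6, a vesicular glutamate transporter gene, averaged 412 ± 85.4 CPM in IP and 198 ± 2.85 CPM in Input. IP replicate 1 had the largest share of the ribosomal RNA precursor Rn45s, 14.5% of assigned counts, against 9.38% and 9.74% in IP replicates 2 and 3 and 5.21 to 5.40% in Input.

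Proteins of these families bind short motifs in RNA and decide which exons are kept, how stable a messenger is, and where it is translated. Rbfox proteins bind a GCAUG motif and promote or repress an exon according to the side on which they bind. Rbfox3 is the antigen NeuN, the usual marker of mature neurons, while Rbfox2 is also made outside the nervous system. Nova proteins bind clusters of YCAY and shape the exons of synaptic genes. Elavl2, Elavl3 and Elavl4 (HuB, HuC and HuD) are the neuronal relatives of the ubiquitous HuR, which Elavl1 encodes, and bind AU-rich and U-rich stretches. Celf proteins bind GU-rich stretches, and Celf4 and Celf5 are expressed chiefly in brain.

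Members of a family resemble each other, so the sequences below show how far apart they are where they are most alike. Each is the ungapped 90-base window of the coding sequence, 5′ to 3′, with the most bases shared by all members, from the GENCODE annotation of mm10. Capitals mark positions at which the members of that family are not all the same. In the Rbfox genes, 69 of 90 positions were shared.
Rbfox1: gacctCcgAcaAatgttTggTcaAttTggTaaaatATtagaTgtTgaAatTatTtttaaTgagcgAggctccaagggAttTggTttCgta
Rbfox2: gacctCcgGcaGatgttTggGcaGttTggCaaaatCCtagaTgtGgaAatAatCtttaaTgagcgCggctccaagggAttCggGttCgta
Rbfox3: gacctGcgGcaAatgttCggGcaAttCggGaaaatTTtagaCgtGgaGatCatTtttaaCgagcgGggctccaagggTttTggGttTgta
The Nova genes shared 74 of 90 positions in their window.
Nova1: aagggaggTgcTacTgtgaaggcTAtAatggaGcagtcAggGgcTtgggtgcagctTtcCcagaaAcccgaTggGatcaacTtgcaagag
Nova2: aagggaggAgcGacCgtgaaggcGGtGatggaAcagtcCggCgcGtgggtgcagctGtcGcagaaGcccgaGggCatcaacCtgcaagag
The neuronal Elavl genes shared 72 of 90.
Elavl2: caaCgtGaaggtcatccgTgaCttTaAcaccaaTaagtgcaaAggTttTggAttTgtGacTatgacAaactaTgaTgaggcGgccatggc
Elavl3: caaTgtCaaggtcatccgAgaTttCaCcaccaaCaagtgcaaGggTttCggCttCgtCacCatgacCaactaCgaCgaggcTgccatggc
Elavl4: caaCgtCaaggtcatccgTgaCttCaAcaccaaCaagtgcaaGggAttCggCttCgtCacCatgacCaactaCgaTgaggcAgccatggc
Over the whole coding sequence the longest run shared by a pair was 29 bases, in Rbfox1 with Rbfox2 and in Elavl3 with Elavl4, and coding identity lay between 64.9% (Rbfox2 with Rbfox3) and 77.6% (Elavl3 with Elavl4). Celf4 and Celf5 were 72.0% identical, with a longest shared run of 26 bases. No 50-base stretch of an annotated transcript of the 10 genes was shared with another member of its family. Reads of that length or more would therefore carry differences between family members, although the read length was not given in the sources used here.

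Of the 10 genes, 6 were higher in IP (Elavl2, Rbfox1, Rbfox3, Nova2, Celf5 and Celf4), 1 was lower (Nova1) and 3 did not pass (Rbfox2, Elavl3 and Elavl4), by edgeR's quasi-likelihood test at an adjusted p of 0.05. Among all 16898 genes tested, 23.3% were called higher and 24.3% lower. The median log2 fold change of the 10 genes was 0.44 (range -0.36 to 1.61), and that of all genes tested was -0.07. For 7 of the 10 genes every IP library lay above every Input library, as it did for 27.9% of all genes, and for 1 every IP library lay below, as for 33.7%. At least 2-fold increases were called in 3 (Elavl2, Rbfox1 and Rbfox3), against 6.57% of all genes. Since the genes were chosen with results of these data known, these counts describe them and are no test of the list. In bulk libraries, fewer cells of a type and less RNA per cell cannot be told apart.

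**Figure D1:**
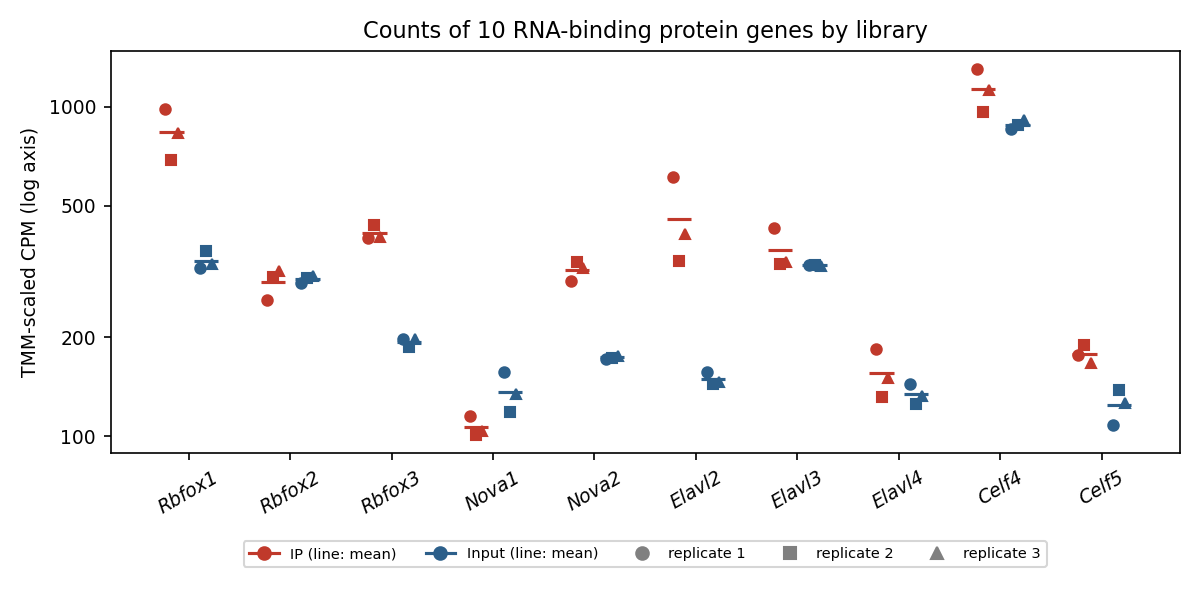
TMM-scaled CPM (log axis) of the 10 genes in each of the 6 libraries, with IP left of Input, 1 symbol per replicate and a line at the mean. The IP libraries lie above all Input libraries for Rbfox1, Rbfox3, Nova2, Elavl2, Elavl3, Celf4 and Celf5 and below them for Nova1.

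The Rbfox family split. Rbfox1, a splicing regulator of neurons and muscle, had 986, 691 and 831 CPM in IP replicates 1 to 3, against 325, 365 and 333 CPM in Input replicates 1 to 3. All IP values lay well above all Input values, and IP replicate 1 was the highest. Rbfox1 was 2.45-fold higher in IP (log2 fold change 1.29, SE 0.12, adjusted p = 4.50e-05). Its log2 ratio was 1.60, 0.92 and 1.32 within replicate numbers 1 to 3. Rbfox3 had 400.4, 437 and 402 CPM in IP, against 198, 186 and 197 CPM in Input. The libraries of each group lay close together and the groups were far apart, at 2.14-fold (log2 fold change 1.10, SE 0.08, adjusted p = 8.44e-06). Rbfox2 had 259, 305 and 317 CPM in IP, against 292, 302 and 307 CPM in Input. Its groups overlapped, with the lowest and the highest library both in IP, and the change was not called (log2 fold change -0.03, SE 0.09, adjusted p = 0.798). Without IP replicate 1 the log2 fold change of Rbfox2 was 0.06, also not called. Rbfox1 spans 1526.2 kb of chromosome 16 (5885355 to 7411526, plus strand, mm10), Rbfox2 lies on chromosome 15 (77078990 to 77307004, minus strand) and Rbfox3 on chromosome 11 (118489762 to 118911597, minus strand). None of the 3 shared exonic bases with another annotated gene.

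Ratios of counts within 1 library do not depend on how libraries are scaled. The ratio of Rbfox1 to Rbfox2 was 3.81, 2.26 and 2.62 in IP replicates 1 to 3, against 1.11, 1.21 and 1.08 in Input. That is a 2.49-fold difference with no overlap (log2 difference 1.32). The ratio of Rbfox3 to Rbfox2 was 1.54, 1.43 and 1.27 in IP, against 0.676, 0.617 and 0.640 in Input, so the order of the pair in raw counts turned round between the groups in every library. Rbfox1 and Rbfox3 kept about the same ratio to each other, between 1.58 and 2.46 in IP and between 1.64 and 1.96 in Input, and the groups overlapped. Of the 8 ratios formed within families, 5 had no overlap, and each of these gave an exact two-sided permutation p of 0.1, the smallest that 3 against 3 libraries allow (0.16 after Benjamini-Hochberg adjustment over the 8). The other 3 gave an exact permutation p of 0.5. Lack of overlap was common, since of all single genes tested 27.9% had every IP library above every Input library and 33.7% had every one below. The share among ratios of other genes was not computed. In a family of 3 genes the last ratio follows from the others, so the 8 are not separate results.

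**Figure D2:**
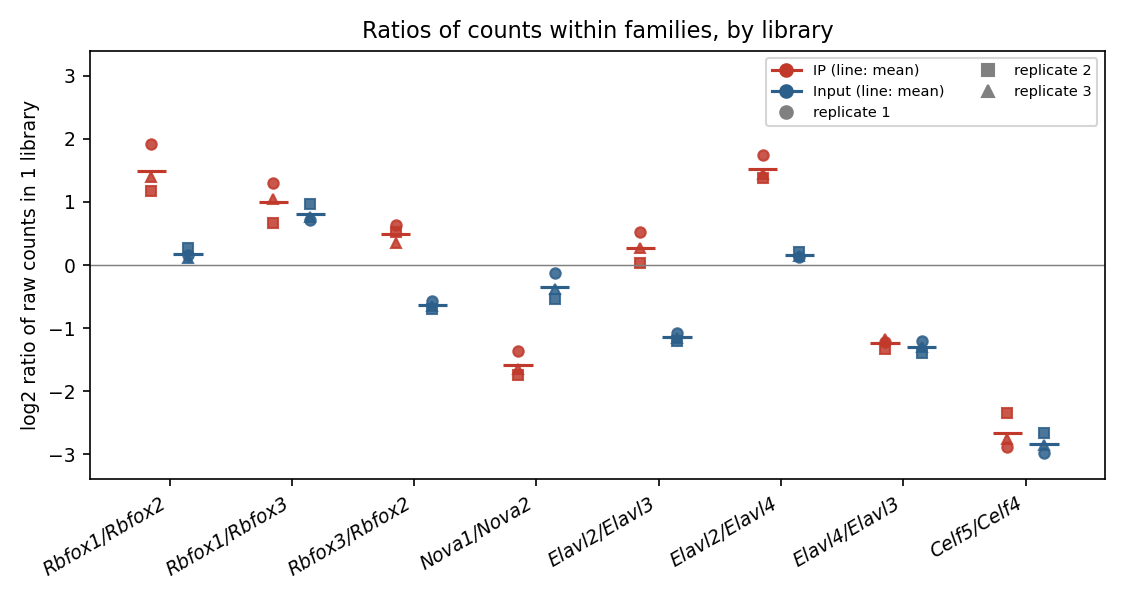
Log2 ratios of raw counts of pairs of family members within each library, with IP left of Input, 1 symbol per replicate and a line at the mean. The 5 pairs that set Rbfox2 against its relatives, Nova1 against Nova2, or Elavl2 against its relatives separate IP from Input, and the other 3 overlap.

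The Nova pair moved in opposite directions. Nova2, the form known from forebrain, had 297, 338 and 325 CPM in IP replicates 1 to 3, against 172, 173 and 175 CPM in Input. The increase was 1.85-fold (log2 fold change 0.88, SE 0.08, adjusted p = 3.44e-05), with all IP libraries far above Input. Nova1, known from brainstem, spinal cord and ventral brain, had 115, 101 and 103 CPM in IP, against 157, 119 and 134 CPM in Input. It was lower in all IP libraries, though the nearest values were 115 in IP and 119 in Input, and the log2 fold change was -0.36 (SE 0.12, adjusted p = 0.0297). The call of Nova1 was lost without IP replicate 2 (adjusted p = 0.0675), IP replicate 3 (0.0882), Input replicate 1 (0.137) or Input replicate 3 (0.0783), by the same edgeR test.

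Within a library the Nova genes could be set against each other directly. The ratio of Nova1 to Nova2 was 0.388, 0.298 and 0.318 in IP, against 0.915, 0.686 and 0.764 in Input, a 2.35-fold lower ratio in IP with no overlap. The log2 difference within replicate numbers ran from -1.26 to -1.20, and the exact permutation p was 0.1, the smallest the design allows. Per kilobase of exon, Nova1 made up 24.2 ± 2.57% of the family's level in IP, against 42.9 ± 3.57% in Input (SD, n = 3 each). Nova1 lies on chromosome 12 (46694517 to 46818929, minus strand, mm10) and Nova2 on chromosome 7 (18925888 to 18965319, plus strand). In the annotation used here 2652 exonic bases of Nova2, 31.7% of its exons, lie opposite exons of Gm26821 on the other strand, and 310 of Nova1 overlap Gm33869. The strand setting and annotation of the counting were not given. Reads over the shared bases of Nova2 may have been counted for it, for its antisense partner or as ambiguous. The levels per kilobase divide by all annotated exons, shared bases included.

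Among the neuronal Elavl genes, Elavl2 was called higher and Elavl3 and Elavl4 were not called. Elavl2 had 614, 341 and 410.0 CPM in IP replicates 1 to 3, against 156, 144 and 146 CPM in Input. The lowest IP library was more than double the highest Input library, and IP replicate 1 stood above the other IP libraries. The fitted difference was 3.06-fold (log2 fold change 1.61, SE 0.19, adjusted p = 1.39e-04), the largest of the 10 genes, and the log2 fold change was 1.35 without IP replicate 1. Only 2.08% of all genes tested had a larger log2 fold change. Elavl3, found across neurons, had 429, 332 and 339 CPM in IP, against 331, 330.2 and 329 CPM in Input. Input libraries were almost equal and IP replicates 2 and 3 lay just above them, and the gene was not called (log2 fold change 0.15, SE 0.10, adjusted p = 0.256). Elavl4, known for binding Gap43 RNA, had 183, 131 and 151 CPM in IP, against 144, 125 and 133 CPM in Input. Its groups overlapped, and it was not called (log2 fold change 0.21, SE 0.13, adjusted p = 0.193) unless IP replicate 2 was left out (0.33, adjusted p = 0.0346). The sign turned to -0.09 for Elavl3 and -0.03 for Elavl4 with scaling by library totals, and to -0.02 for Elavl3 with upper-quartile scaling.

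Within libraries, Elavl2 was higher in IP against both relatives. Its ratio to Elavl3 was 1.43, 1.03 and 1.21 in IP, against 0.472, 0.435 and 0.446 in Input, a 2.69-fold difference. Its ratio to Elavl4 was 3.35, 2.60 and 2.72 in IP, against 1.09, 1.15 and 1.10 in Input, a 2.58-fold difference. Neither ratio overlapped between groups, and each had the smallest possible exact permutation p of 0.1. Elavl4 and Elavl3 stayed near the same ratio, at 0.428, 0.395 and 0.444 in IP and 0.434, 0.379 and 0.404 in Input. As a share of the level per kilobase of all annotated exons of these 3 genes, Elavl2 took 39.5 ± 3.69% in IP and 19.7 ± 0.314% in Input. Elavl3 took 39.3 ± 2.97% in IP and 52.9 ± 1.41% in Input (SD, n = 3 libraries). These shares depend on the length used. Per kilobase of the longest transcript, Elavl2 averaged 109 and Elavl3 73.1 CPM per kb in IP, against 35.5 and 65.8 in Input. Elavl2 lies on chromosome 4 (91250763 to 91400785, minus strand, mm10), as does Elavl4 (110203722 to 110351909, minus strand), and Elavl3 lies on chromosome 9 (22015005 to 22052023, minus strand), where 256 of its exonic bases overlap Gm49318.

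Both Celf genes rose by smaller amounts. Celf5 had 176, 189 and 167 CPM in IP replicates 1 to 3, against 108, 138 and 126 CPM in Input. All IP libraries lay above Input (1.43-fold, log2 fold change 0.51, SE 0.11, adjusted p = 0.00386). Celf4, a regulator of messenger stability and translation in excitatory neurons of the mouse, had 1303, 963 and 1124 CPM in IP, against 854, 881 and 914 CPM in Input. IP replicate 2 lay only a little above the highest Input library, and the increase was 1.28-fold (log2 fold change 0.36, SE 0.11, adjusted p = 0.0201). The call of Celf4 was lost without Input replicate 1 (adjusted p = 0.0742) or Input replicate 2 (0.0580), and under upper-quartile scaling (0.207) or library totals (0.349), where Celf5 lost its call too (0.0881). The ratio of Celf5 to Celf4 overlapped between groups, at 0.135 to 0.196 in IP and 0.126 to 0.157 in Input. Celf4 lies on chromosome 18 (25477632 to 25754157, minus strand, mm10) and Celf5 on chromosome 10 (81459227 to 81482709, minus strand), where 543 of its exonic bases lie opposite Gm16105.

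**Figure D3:**
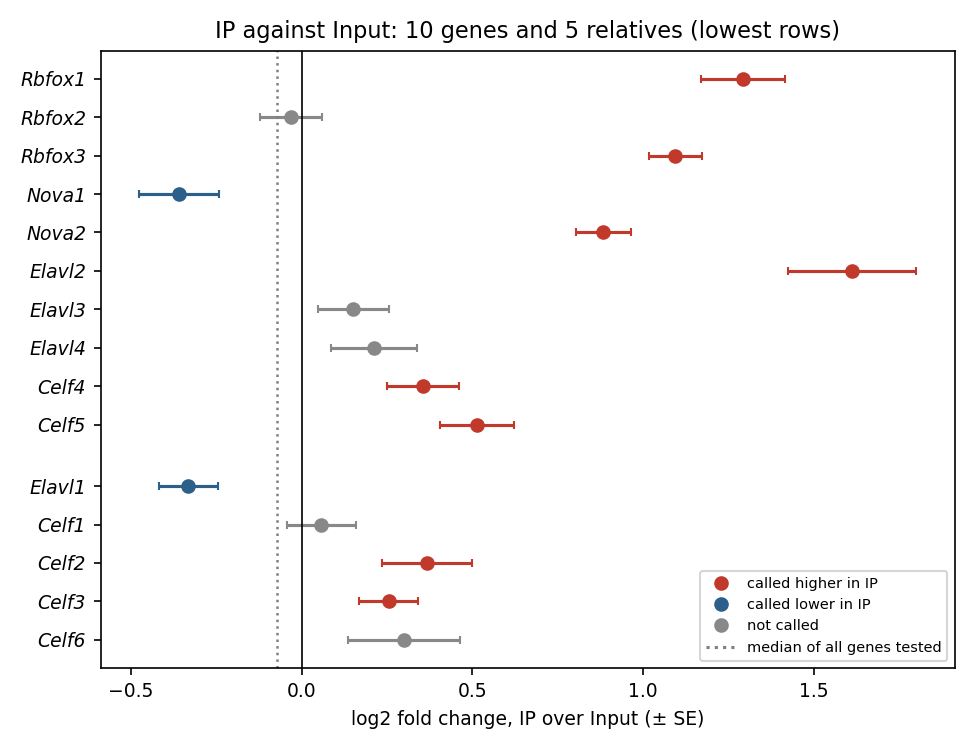
Log2 fold change of IP over Input with its SE for the 10 genes and, in the lowest rows, 5 family relatives, coloured by call, with the median of all genes tested (-0.07) dotted. Elavl2 (1.61), Rbfox1 (1.29), Rbfox3 (1.10) and Nova2 (0.88) stand apart from the rest, which lie between -0.36 and 0.51.

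Scaling bears on the smaller changes. The median of all genes shifted from -0.07 under TMM to -0.25 under upper-quartile scaling and -0.31 under library totals, and higher genes made up 48.9%, 36.7% and 31.9% of all calls. Elavl2, Rbfox1, Rbfox3 and Nova2 kept their calls in every alternative fit, including a test against a 1.5-fold change (8.78% of all genes called higher). Their lowest log2 fold changes over all alternatives were 1.35, 1.05, 0.86 and 0.65.

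Levels of different genes were compared as CPM per kilobase of exon, which depends on the annotated exons. In IP, Rbfox1 had the highest level, 190.05 ± 33.5 CPM per kb, followed by Celf4 at 132 ± 19.8, and these did not overlap. In Input the order of these was the reverse, with 77.5 ± 4.82 for Rbfox1 and 103 ± 3.48 for Celf4 (SD, n = 3 each). Below them in IP came Rbfox3 (71.0), Elavl2 (54.7) and Elavl3 (53.2 CPM per kb), where neighbours overlapped, then Nova2 (38.2), Rbfox2 (36.1), Elavl4 (28.8) and Celf5 (26.6), where they overlapped as well. In Input, Elavl3 (47.9) was next, then Rbfox2 (36.9), Rbfox3 (33.3), Elavl4 (24.8), Nova2 (20.7), Celf5 (18.6) and Elavl2 (17.9 CPM per kb), of which only Nova2, Celf5 and Elavl2 overlapped a neighbour. Nova1 had the lowest level in both groups, 12.2 CPM per kb in IP and 15.6 in Input, and in Input its range overlapped that of Elavl2. Elavl2 stood at rank 4 of 10 in IP and at rank 9 in Input, and by the longest transcript at rank 4 in IP and rank 6 in Input. By that measure, Celf4 was the highest in IP as well (283 CPM per kb, against 273 for Rbfox1).

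**Figure D4:**
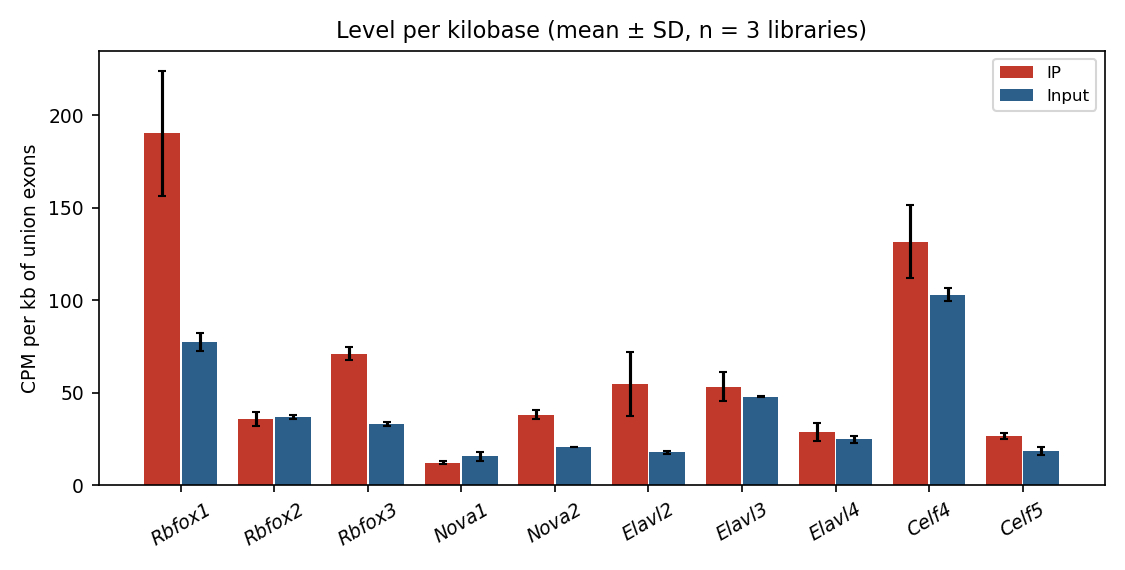
Mean TMM-scaled CPM per kilobase of union exons (± SD, n = 3 libraries) of the 10 genes, with IP left of Input. Rbfox1 and Celf4 have the highest levels in both groups and Nova1 the lowest.

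Most of the 10 genes varied more between IP libraries than between Input libraries. The coefficient of variation of CPM was higher in IP for 8 of 10, with ranges of 4.99 to 31.2% in IP and 0.355 to 14.1% in Input. IP replicate 1 was the highest IP library for 6 genes (Rbfox1, Nova1, Elavl2, Elavl3, Elavl4 and Celf4) and the lowest for 3 (Rbfox2, Rbfox3 and Nova2). The shares of all genes with these traits were not computed. Raw counts of all genes also differed more between IP libraries, with a chi-square per degree of freedom of 44.1 to 141, against 12.3 to 22 for pairs of Input libraries. That measure used library totals without TMM, included Rn45s and gives most weight to genes with many counts. Whether the wider spread in IP is particular to the 10 genes was not tested. The level of Elavl2 in IP replicate 1 was 1.64 times the mean of the other IP libraries, and that of Rbfox1 1.30 times. The summed CPM of the 10 genes was 4763, 3829 and 4169 in IP replicates 1 to 3, against 2737, 2763 and 2794 in Input. IP replicate 1 also held the largest share of Rn45s, given above, and the part of that in its values was not tested.

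Relatives outside the 10 genes changed by small amounts. Celf2 (log2 fold change 0.37, SE 0.13, adjusted p = 0.0425) and Celf3 (0.26, SE 0.09, adjusted p = 0.0358) rose, Elavl1 fell (-0.33, SE 0.09, adjusted p = 0.0111), and Celf1 (0.06, adjusted p = 0.672) and Celf6 (0.30, adjusted p = 0.159) did not pass. Elavl1, which encodes HuR, had 101, 93.6 and 94.5 CPM in IP, against 116, 127 and 120 CPM in Input, so it lay below in every IP library, while its neuronal relative Elavl2 lay above. Celf2 had 705, 487 and 543 CPM in IP, against 423, 487 and 434 CPM in Input, and IP replicate 2 was level with Input replicate 2. The calls of Celf2 and Celf3 rest on few settings. Celf3 was lost on leaving out any library but IP replicate 1, or when replicate number was blocked (adjusted p = 0.0562), and Celf2 on leaving out any library but IP replicate 2, with adjusted p between 0.0506 and 0.136 for both. Elavl1 lost its call without Input replicate 2 (0.0735), and Celf6 was called higher without IP replicate 1 (0.44, adjusted p = 0.0196).

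Among 12 other splicing regulators of brain, of which Mbnl3 was too low to test, 2 rose and 3 fell (median log2 fold change 0.13). These counts are near the shares over all genes tested, 23.3% higher and 24.3% lower. Qk, which encodes quaking, a regulator of splicing in glia, averaged 82.6 ± 11.0 CPM in IP, against 689 ± 50.5 CPM in Input (SD, n = 3 libraries). It lay far below Input in every IP library (log2 fold change -3.06, SE 0.12, adjusted p = 3.84e-07). Ptbp1, the repressor of neuronal exons in non-neuronal cells, fell too (-0.59, SE 0.18, adjusted p = 0.0217), as did Srrm3 (-0.56, adjusted p = 0.0478), which was named after its value was seen. Srrm3 lost its call without any library but IP replicate 3 (adjusted p between 0.0783 and 0.132) and with no filter on low counts (0.0502). Khdrbs1, which encodes Sam68, rose (0.60, SE 0.09, adjusted p = 7.34e-04), and so did Srrm4, a promoter of neuronal microexons (0.33, SE 0.12, adjusted p = 0.0408). Srrm4 lost its call without IP replicate 1 or any 1 Input library (adjusted p between 0.0531 and 0.153), and Ptbp1 without Input replicate 2 (0.123) or 3 (0.0910).

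Of 17 RNA-binding proteins that act on messengers in the cytoplasm of neurons, 16 were tested, 1 rose and 2 fell, against 23.3% higher and 24.3% lower among all genes tested. Msi2, a translational regulator, fell (log2 fold change -0.58, SE 0.11, adjusted p = 0.00192; 280.3 ± 39.4 CPM in IP, against 420.1 ± 21.7 CPM in Input, SD over 3 libraries). Syncrip fell (-0.38, adjusted p = 0.0332) and Fmr1, the fragile X gene, rose (0.30, adjusted p = 0.0338). Fmr1 lost its call without IP replicate 3 or any 1 Input library (adjusted p between 0.0579 and 0.146), and when replicate number was blocked (0.0648). Syncrip lost its call without any library but IP replicate 1 (0.0506 to 0.101). The median of the list was -0.03, close to that of all genes.

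Counts per gene cannot show which exons a transcript kept, so targets could be described only by their level. Of 14 genes whose transcripts are known as bound or spliced by these families, 6 rose and 0 fell by edgeR's test (median log2 fold change 0.16). Among all genes tested, 23.3% were called higher and 24.3% lower. The genes of this list were chosen with earlier results known, so the counts are no test of it. At an unadjusted p under 0.05, 1 gene, Cacna1c, was lower (log2 fold change -0.38, adjusted p = 0.0572 by edgeR's quasi-likelihood test), named after its value was seen. Its groups overlapped, with 115 CPM in IP replicate 1 and 109 CPM in Input replicate 1. Cacna1c was called lower by DESeq2 (adjusted p = 0.0178), by limma-voom (0.0349) and by edgeR when replicate number was blocked (0.0373). Nf1, also named after its value was seen, was higher at an unadjusted p under 0.05 and not called (log2 fold change 0.25, adjusted p = 0.074 by edgeR's test). Bdnf, a neurotrophin whose RNA HuD binds, had 51.6, 53.5 and 40.2 CPM in IP, against 10.6, 14.2 and 13.9 CPM in Input, and it rose (log2 fold change 1.90, SE 0.17, adjusted p = 3.35e-05). Glra2, a glycine receptor subunit gene with an exon that Nova regulates, rose as well (1.56, SE 0.18, adjusted p = 1.25e-04). The Nova target Dab1 (0.68, SE 0.11) and the glutamate receptor gene Grin1 (0.68, SE 0.12) rose by smaller amounts, and the others that rose, named to complete the count after their values were seen, were Snap25 (1.06) and Gap43 (0.75).

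Markers of cell types moved with the comparison, in which 23.3% of all genes tested were called higher and 24.3% lower. Of 12 pan-neuronal markers 10 rose and 2 fell (median log2 fold change 0.83), led by Stmn3 (1.36) and Uchl1 (1.28), with Syn2 (-2.19) and Map2 (-1.09) lower. Their summed level was 25399 to 30351 CPM in IP and 14006 to 15108 CPM in Input. Most of that was Snap25 alone, at 17231 to 22062 CPM in IP and 8829 to 9737 CPM in Input, so the sum mainly follows 1 gene. Snap25 is also counted among the known targets above. All 10 astrocyte markers fell, with a summed level of 840 to 899 CPM in IP and 2434 to 2506 CPM in Input, from Slc1a2 (-0.85) and Aldoc (-1.26) to Gfap (-3.95) and Fgfr3 (-4.18). All 10 oligodendrocyte lineage markers fell, to 274 to 348 CPM in IP, against 3428 to 3935 CPM in Input, from Pdgfra (-3.01) and Mag (-3.35) to Sox10 (-3.81) and Ermn (-4.00). Of 8 microglial markers 6 fell (9.85 to 10.4 CPM in IP, 45.6 to 52.4 in Input), among them Csf1r (-2.42) and Ctss (-4.20); Csf1r lost its call without any 1 Input library or without IP replicate 2. Of 6 endothelial markers 4 fell (10.8 to 19.9 CPM in IP, 32.4 to 34.0 in Input), among them Slc2a1 (-0.84). Most of that sum was Slc2a1 alone, at 10.5 to 17.8 CPM in IP and 25.5 to 26.8 CPM in Input. Cldn5, named because no IP library held a count of it, had 7, 11 and 49 counts in Input replicates 1 to 3. When any 1 Input library was left out, 2 of the 6 fell. Of 7 inhibitory neuron markers 6 fell (114 to 125 CPM in IP, 576 to 825 in Input), among them Sst (-1.80), Slc32a1 (-2.80), Gad2 (-3.12) and Six3 (-4.24). Pvalb, named after its value was seen, was not called (44.0 ± 7.34 CPM in IP, against 49.7 ± 9.50 CPM in Input, SD over 3 libraries). Gad2 held 51.9 to 64.0 CPM of this sum in IP and 415 to 594 CPM in Input. The part of these shifts in the values of the 10 genes was not tested.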

How the data were processed

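RNA-seq read counts per gene of 3 IP and 3 Input libraries were analysed. The authors deposited raw counts in 1 table per library. STAR 2.0.0e, HTSeq and the build mm10 are named in the submitters' processing notes. Annotation, strand setting and read length are not given in the sources used here. Group was read from the labelled sample type, and replicate number from the title.

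Lines tied to no gene entered neither library sizes nor tests. Reads not uniquely aligned made up 43.2 to 49.7% of all lines in IP and 32.7 to 34% in Input. Reads outside features made up 8.44 to 9.39% in IP and 14.8 to 15.9% in Input, and ambiguous reads 1.32 to 1.58% in IP and 5.47 to 6.60% in Input. None of these shares overlapped between groups, and the part of that in the fold changes and ratios was not tested. Replicates of a group differed by more than sampling noise (chi-square per degree of freedom 44.1 to 141 between IP libraries and 12.3 to 22 between Input libraries). Genes passing filterByExpr (minimum count 10) were tested with edgeR 4.0.16 in R 4.3.3 (TMM, robust quasi-likelihood F-test, Benjamini-Hochberg over all 16898 genes, threshold 0.05), and every adjusted p-value is from this test unless another is named. SE were derived from the F statistic. Alternatives used other scalings and filters, DESeq2 1.42.0, limma-voom 3.58.1, a replicate block and each library left out. Each replicate number is 1 sequencing lane in the labels, and correlations of same-numbered deviations from the group means were 0.0977, 0.0395 and 0.0246. Exon lengths and sequences came from GENCODE M21 on the same build, aligned with MAFFT 7.526, and permutation tests used SciPy 1.17.1. The members and lists were chosen with earlier results of these data known. Beyond the 10 genes, the text names all family relatives and, per list, the 2 highest and 2 lowest called genes whose mean reached 5 CPM, with exceptions marked in the text. 1 gene that this rule names is not reported here.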

Additional observations from a re-analysis of the deposited data

How the results depend on the processing

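Over 15 alternatives, the 10 genes gave 4 to 7 higher calls (6 in the fit reported) and 0 or 1 lower calls. The count of lower calls was 0 against a 1.5-fold change. It was also 0 without IP replicate 2, IP replicate 3, Input replicate 1 or Input replicate 3, and 1 without IP replicate 1 or Input replicate 2. Nova1 kept its sign but was not called against a 1.5-fold change (-0.36), and ranged from -0.44 to -0.24 with 1 library left out. Celf4 was not called under upper-quartile scaling (0.18), library totals (0.11) or against a 1.5-fold change (0.36), with 0.25 to 0.47 when 1 library was left out; Celf5 was not called under library totals (0.28) or against a 1.5-fold change (0.51). Signs turned for Rbfox2 without IP replicate 1 (0.062; range -0.075 to 0.062), for Elavl3 under upper-quartile scaling (-0.024) and library totals (-0.092), for Elavl4 under library totals (-0.031; 0.085 to 0.327 with 1 library left out) and for Celf1 under upper-quartile scaling (-0.12), totals (-0.18) and a stricter filter (-0.009; -0.027 to 0.127 with 1 library left out). The cause was not tested.

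Among relatives, 2 were called higher, but 0 under RLE, upper-quartile or library-total scaling, the stricter filter or the 1.5-fold test, 1 with the replicate block, and 0 to 2 with 1 library left out; 1 was lower, but 0 against 1.5-fold and 0 to 1 with 1 library left out. Other splicing regulators gave 1 higher under RLE, upper-quartile, library totals and the stricter filter, 0 against 1.5-fold and 1 to 4 with 1 library left out, and 1 lower against 1.5-fold and 1 to 5 with 1 left out. Cytoplasmic RNA-binding proteins gave 0 higher under RLE, upper-quartile, library totals, the stricter filter and the 1.5-fold test (0 to 3 with 1 left out), and 6 lower under library totals, 0 against 1.5-fold (1 to 3 with 1 left out). Known targets gave 3 higher against 1.5-fold, and 1 lower under RLE, upper-quartile, totals, the stricter filter, DESeq2, limma-voom and the replicate block (0 to 1 with 1 left out). Endothelial markers gave 1 lower under the stricter filter and against 1.5-fold (2 to 5 with 1 left out). The replicate block changed no call among the 10 genes.

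Per kilobase of the longest transcript, levels in IP and Input were 273 and 111 for Rbfox1, 42.5 and 43.5 for Rbfox2, 131 and 61.4 for Rbfox3, 14.9 and 19.1 for Nova1, 109 and 35.5 for Elavl2, 73.1 and 65.8 for Elavl3, 37.4 and 32.3 for Elavl4, 283 and 221 for Celf4, and 40.4 and 28.3 for Celf5. The log2 difference of each ratio within families kept its sign on leaving out any 1 library. Exon length and the replicate block leave that mean difference unchanged by construction, so they could not turn its sign. Within replicate numbers the difference ran from -0.311 to 0.583 for Rbfox1 to Rbfox3 and from -0.019 to 0.136 for Elavl4 to Elavl3. With 3 libraries per group, small differences such as that of Elavl4 could not be settled.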
